A study of Mus musculus with 10 samples.

Results

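The genes described here are 40 transcripts of the endoplasmic reticulum (ER) folding machinery and the unfolded protein response, out of 56748 gene identifiers counted by RNA-seq. They were taken from a list by gene symbol. The list was chosen with earlier results of these data known, so shares of called members are descriptive. Of the 40, 10 encode the chaperone BiP and its partners, 8 are lectin chaperones and disulfide enzymes, and 9 act in ER-associated degradation. A further 5 are sensors or factors of the IRE1 and ATF6 arms, and 8 belong to the PERK arm. All 40 were found in the tables and all 40 passed the filter on low counts. The RNA came from beta cells of male NOD mice, an inbred strain prone to autoimmune diabetes, aged 6 to 8 weeks. Intact islets were kept either untreated (5 libraries, numbered 1 to 5) or with lipopolysaccharide (LPS) at 50 ng/ml for 48 hours (5 libraries, numbered 6 to 10), and the beta cells were isolated from them afterwards by FACS. LPS therefore reached the whole islet, other islet cells included, and the labels name neither the animals behind each library nor the markers of the sort. P-values measure the spread between these libraries. In such bulk samples, fewer cells of a type and less RNA per cell cannot be told apart.

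Proteins that enter the ER are folded by chaperones such as BiP, glycan-binding calnexin and calreticulin, and the protein disulfide isomerases. When unfolded proteins accumulate, 3 sensors in the ER membrane respond: IRE1 splices the Xbp1 mRNA to give an active transcription factor, ATF6 is cut in the Golgi to release another, and PERK phosphorylates eIF2 alpha, which slows translation and favours that of ATF4. XBP1 and ATF6 act on genes of folding and degradation with wide overlap, while ATF4 and its target CHOP act on genes of amino acid metabolism, oxidation and cell death. Beta cells secrete large amounts of proinsulin, and loss of PERK or of the ER protein wolframin causes diabetes. Gene counts do not show the spliced form of Xbp1, cut ATF6 or phosphorylated PERK, so only transcript levels are described.

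Between 18465188 (LPS 9) and 27379892 (LPS 7) reads per library were counted in genes. Insulin transcripts dominated every library, with Ins2 at 53804 to 79908 CPM (read counts scaled to the normalised library total), but glucagon and somatostatin transcripts of other islet cells were present as well (Gcg at 4017 to 14047 CPM, Sst at 4749 to 8674 CPM). Acinar markers, which matter here because acinar cells are rich in ER chaperones, overlapped between groups: the summed level of the 9 markers ran from 199 to 434 CPM in untreated and from 117 to 582 CPM in LPS libraries, and the lowest value of all was that of LPS 10. None of the 8 acinar markers tested was called, and Amy2a5 was at 0 in 8 of 10 libraries. The 7 endothelial markers had summed levels of 1.2 to 21.2 CPM and 1.27 to 4.37 CPM, and 1 of the 4 tested was called lower. The 8 macrophage markers summed to 31.1 to 45.3 CPM and 41.1 to 52.7 CPM, with Cd68 and Cd14 called higher, Adgre1 at 0 in 9 of 10 libraries and Itgam at 0 in 9. C1qa, the other one tested, went the other way without a call (mean 18.7 and 14.7 CPM, log2 fold change -0.35). Csf1r (mean 0.39 and 0.27 CPM), Lyz2 (0.12 and 0.03) and C1qb (0.04 and 0.01) were too low to be tested. The 7 ductal markers summed to 844 to 1029 CPM and 1005 to 1192 CPM, with Spp1 called higher of 6 tested. Most of this sum came from Krt7 (mean 423 and 472 CPM), Krt18 (269 and 327) and Epcam (168 and 184), none of them called. Krt19 (5.08 and 8.49 CPM), Sox9 (1.51 and 1.51) and Cftr (0.52 and 0.47) were low, and none was called. Lymphocyte and plasma cell markers (9 genes) summed to 2.17 to 3.81 CPM and 1.28 to 3.31 CPM, with the plasma cell genes Jchain and Mzb1 at or near 0 in all libraries. The 5 mesenchymal markers summed to 4.47 to 88.8 CPM and 3.17 to 25.3 CPM, none of them called. Of the 8 beta cell markers, Slc2a2 and Ucn3 were called lower. Summed alpha markers (5 genes) ran from 4133 to 14254 CPM and delta markers (3 genes) from 4969 to 9050 CPM over all libraries, with groups overlapping. The part of endothelial, ductal and macrophage RNA in the results below was not tested. Untreated 1 and LPS 6 stood apart from their groups in several stress genes, and untreated 5 and LPS 10 in Ddit3, as described with the PERK arm.

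A minority of the 40 members passed the edgeR threshold as more abundant in beta cells from LPS-exposed islets, while most had small positive values. In edgeR's quasi-likelihood test, 9 of the 40 members rose at a Benjamini-Hochberg adjusted p under 0.05 and none fell, where 2.84% of the 15942 genes tested were called higher and 0.928% lower. The called members were Sdf2l1, Creld2, Manf, Dnajb11, Pdia4, Pdia6, Derl3, Edem1 and Trib3. Log2 fold changes lay above 0 for 37 members against 47.9% of all genes, with a median of 0.19 against -0.01, or 14.3% more on the linear scale. The largest was 0.68. For 15 members every LPS library lay above every untreated one and for 1 below, against 3.84% and 1.87% of all genes. At an unadjusted p under 0.05 stood 22 members, against 15.3% of all genes. Other tests called more of the members and more genes in all. DESeq2 called 17 members higher and 1 lower (4.1% and 2.02% of all genes), limma-voom with sample weights 17 and 1 (4.35% and 1.89%), and edgeR with 1 surrogate variable 21 and 1 (5.42% and 2.95%). Summed over the 40 genes, the level was 18656 ± 662 CPM in untreated and 21065 ± 676 CPM in LPS libraries (SD, n = 5 each). These sums did not overlap, with a highest untreated value of 19205 and a lowest LPS value of 20498.

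**Figure D1:**
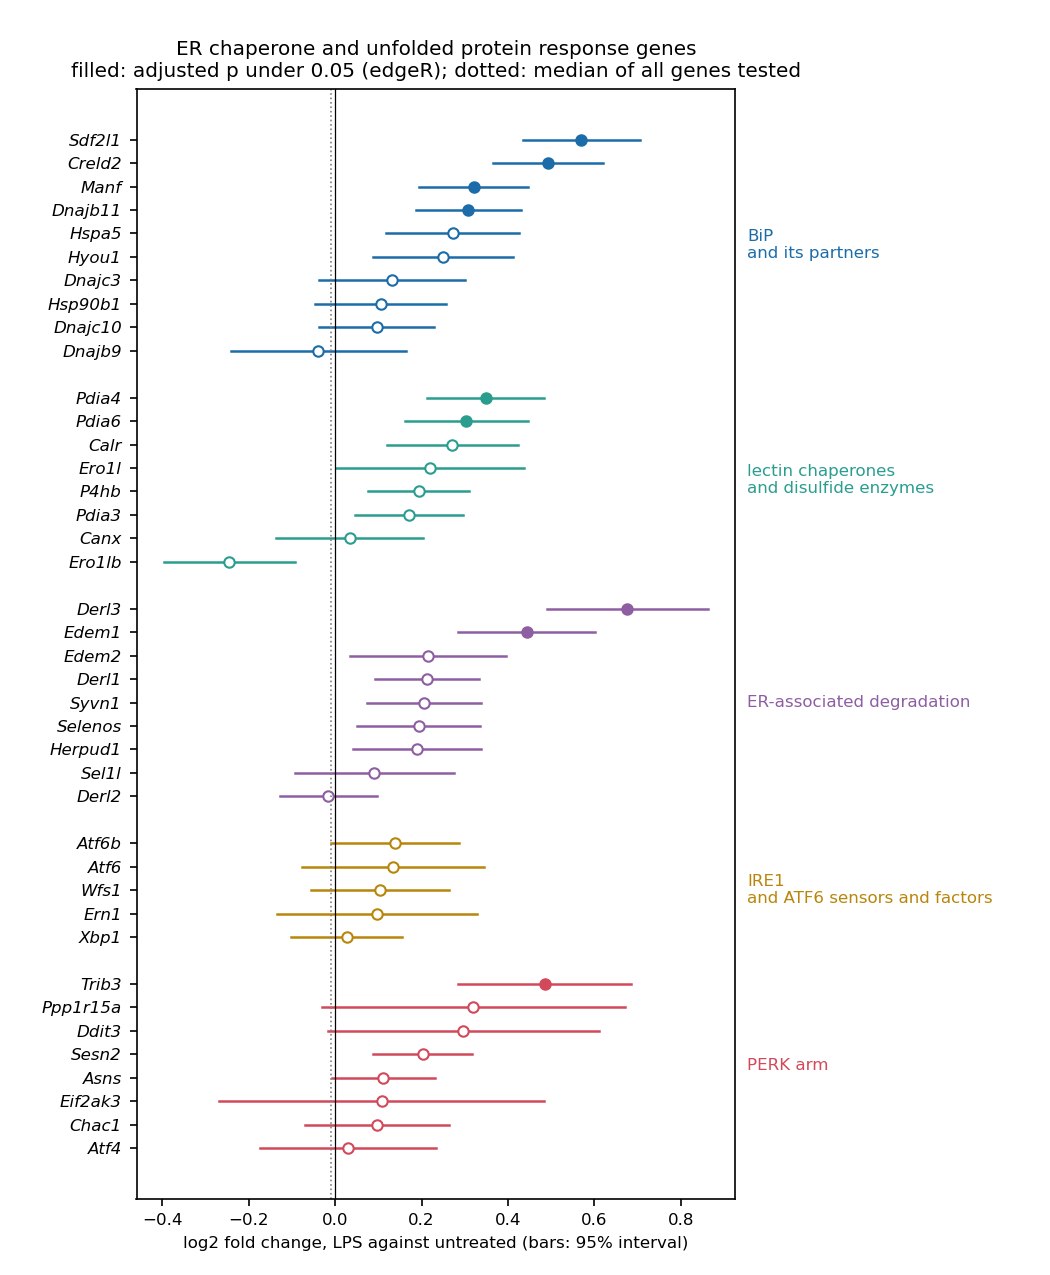
Log2 fold change of each member, LPS against untreated, with its 95% interval, in 5 role groups; filled points are the 9 members with an edgeR adjusted p under 0.05 and the dotted line is the median of all genes tested (-0.01). Points lie right of 0 for 37 members, and Ero1lb lies farthest to the left.

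BiP and its partners had a median log2 fold change of 0.26, with 9 of the 10 values above 0 (47.9% of all genes). EdgeR called 4 of them higher (2.84% of all genes), and DESeq2 and limma-voom each called 6 (4.1% and 4.35%). Sdf2l1, a soluble partner of the BiP chaperone complex, stood at 159.9, 167, 156, 152 and 162 CPM in untreated libraries 1 to 5 and at 211, 229, 258, 244 and 240.5 CPM in LPS libraries 6 to 10. The groups were far apart, with LPS 6 the lowest of the LPS libraries, and the log2 fold change was 0.57 ± 0.06 (SE; edgeR adjusted p = 1.50e-04). Creld2, an ER-resident factor with disulfide isomerase activity, read 142, 143, 133, 138 and 142 CPM against 175, 200.04, 197, 209 and 201 CPM. It again had its lowest LPS value in LPS 6 and no overlap (0.49 ± 0.06 SE, edgeR adjusted p = 2.63e-04). Manf, a secreted and ER-retained stress factor known to support beta cell survival, read 327, 342, 322, 346 and 323 CPM against 376, 425, 422, 414 and 434 CPM (0.32 ± 0.06 SE, edgeR adjusted p = 0.00608). Dnajb11, a J-domain cochaperone of BiP, read 146, 157, 145, 165 and 161 CPM against 193, 192, 185, 194 and 195 CPM (0.31 ± 0.06 SE, edgeR adjusted p = 0.00608). In both, all LPS libraries lay above all untreated ones, with LPS 6 the lowest of its group for Manf and a narrow LPS range for Dnajb11.

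BiP itself, encoded by Hspa5, was the most abundant of the group at 2346, 2215, 2150, 2304 and 2068 CPM in untreated and 3001, 2767, 2585, 2483 and 2545 CPM in LPS libraries. The groups did not overlap, yet its log2 fold change of 0.27 (95% interval 0.12 to 0.43) missed the threshold in edgeR (adjusted p = 0.0535); DESeq2 called it (adjusted p = 0.00325), as did limma-voom (0.0192). Hyou1, an exchange factor for BiP, was at 1193 ± 91.6 and 1419 ± 107 CPM (SD, n = 5; 0.25, edgeR adjusted p = 0.0986), with LPS 10 inside the untreated range. The ER form of HSP90, Hsp90b1, had 0.11 (interval -0.05 to 0.26). Among the J-domain genes, Dnajc3, which encodes an inhibitor of PERK, had 0.13 and Dnajc10, a disulfide reductase, 0.10, and both overlapped between groups. Dnajb9, the J-domain protein that represses IRE1 and a classical XBP1 target, read 492, 438, 408, 424 and 407 CPM against 512, 435, 366, 369 and 429 CPM. The highest library of each group was 1 and 6, and the log2 fold change of -0.04 had an interval of -0.24 to 0.16, which leaves out the estimates of the 4 called members of the group.

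**Figure D2:**
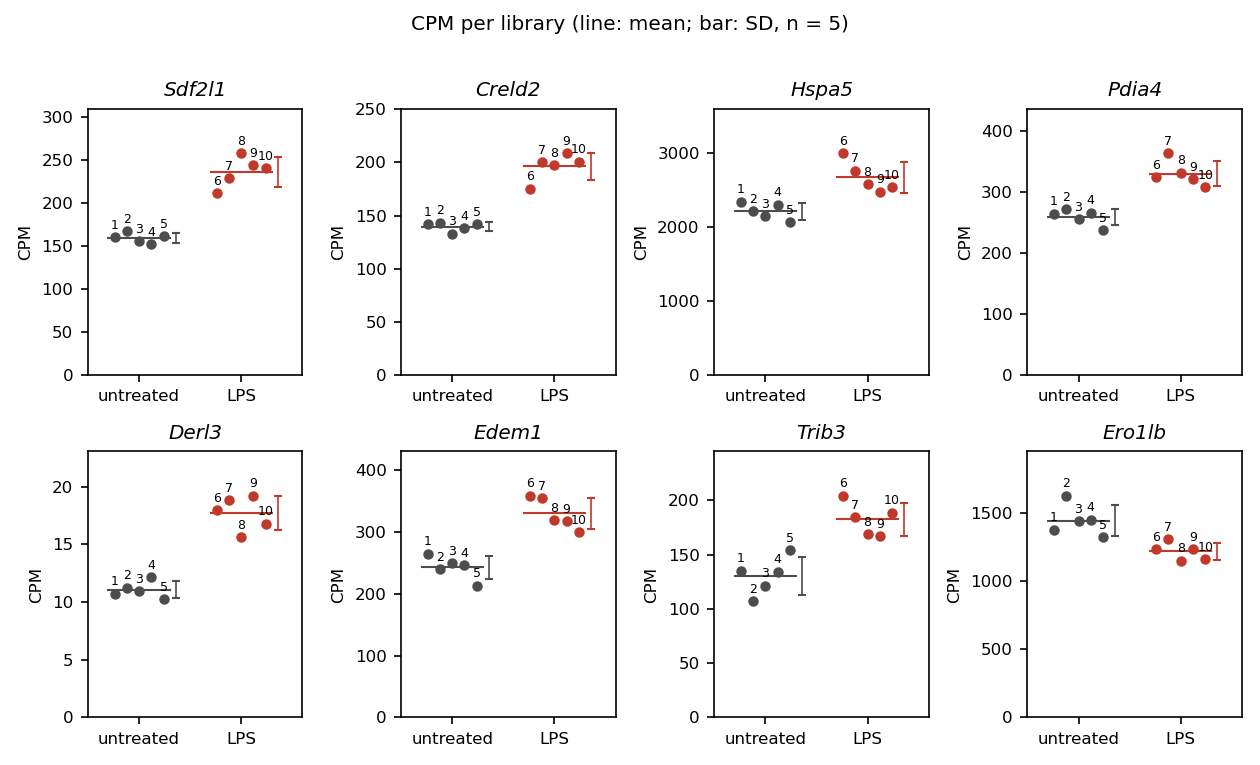
CPM of 8 members in each library, with library numbers, group mean (line) and SD (bar); each vertical axis starts at 0. For Sdf2l1, Creld2, Hspa5, Pdia4, Derl3, Edem1 and Trib3 all LPS points lie above all untreated points, and for Ero1lb all lie below.

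Lectin chaperones and disulfide enzymes had values of both signs, with a median of 0.21 and 2 of 8 called higher by edgeR (2.84% of all genes). Pdia4, a disulfide isomerase, read 265, 272, 256, 266 and 238 CPM in untreated and 324, 364, 332, 322 and 309 CPM in LPS libraries. All LPS values were above all untreated values (0.35 ± 0.06 SE, edgeR adjusted p = 0.00576). Pdia6, a disulfide isomerase that also dampens IRE1 signalling, read 643, 700.0, 638, 661 and 576 CPM against 736, 837, 777, 812 and 809 CPM (0.30 ± 0.07 SE, edgeR adjusted p = 0.0194). Its call was lost without untreated 3 (adjusted p = 0.0667), LPS 7 (0.0667) or LPS 9 (0.0596). The abundant isomerase genes P4hb (1179.5 ± 35.4 and 1349 ± 24.7 CPM, SD, n = 5) and Pdia3 (1244 ± 55.6 and 1400.3 ± 38.7 CPM) had smaller differences of 0.19 and 0.17. Their groups did not overlap, but neither passed edgeR (adjusted p = 0.0732 and 0.154).

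Calreticulin and calnexin bind the same class of glycoproteins, and neither gene was called by edgeR. Calr, the soluble one, read 1611, 1814, 1707, 1901 and 1694 CPM against 1891, 2211, 2068, 2131 and 2231 CPM. LPS 6 fell just inside the untreated range, and the log2 fold change of 0.27 missed the threshold (edgeR adjusted p = 0.0514; 0.0339 without LPS 6). DESeq2 (adjusted p = 0.00206) and limma-voom (0.0101) called it. Canx, the membrane-bound one, was at 634 ± 41.2 and 649.5 ± 66.8 CPM (SD, n = 5; 0.03, interval -0.14 to 0.20).

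The 2 ER oxidase genes, whose products pass electrons from disulfide isomerases to oxygen, differed in sign. Ero1lb, the form enriched in the pancreas and in beta cells, read 1375, 1623, 1436, 1449 and 1319 CPM in untreated and 1234, 1307, 1148, 1230.3 and 1158 CPM in LPS libraries. It was the only member whose LPS libraries all lay below the untreated ones, and its log2 fold change was -0.25 (interval -0.40 to -0.09). The edgeR call was missed (adjusted p = 0.0794; 0.0485 without untreated 5) and given by DESeq2 (0.0116) and limma-voom (0.0170). Ero1l, the broadly expressed and CHOP-inducible form, read 185, 151, 143, 163 and 128 CPM against 211, 174, 167, 188 and 159 CPM (0.22, edgeR adjusted p = 0.323), with untreated 1 and LPS 6 the highest of their groups. Per kilobase of exon, Ero1lb was the more abundant form, at 217 CPM per kb in untreated libraries against 29.2 for Ero1l.

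ER-associated degradation, which moves misfolded proteins back to the cytosol for the proteasome, had a median of 0.21. EdgeR called 2 of its 9 members higher (2.84% of all genes). Derl3, of the derlin family of membrane proteins in the export channel, had the largest log2 fold change of all 40 genes at the lowest level. It read 10.7, 11.3, 11, 12.2 and 10.3 CPM in untreated and 18.0, 18.9, 15.6, 19.2 and 16.8 CPM in LPS libraries, without overlap (0.68 ± 0.09 SE, edgeR adjusted p = 4.41e-04). Its relatives were not called by edgeR: Derl1 read 279.6 ± 10.1 and 324 ± 14.7 CPM (SD, n = 5; 0.21, edgeR adjusted p = 0.0539; DESeq2 0.00233), and Derl2 read 131 ± 4.25 and 129.9 ± 4.36 CPM (-0.02, interval -0.13 to 0.10). Derl3 is known to be strong in acinar cells, whose summed marker levels overlapped between groups as given above, and the part of acinar RNA in its difference was not tested.

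Edem1, a lectin that hands misfolded glycoproteins to degradation, read 265, 239, 249, 246 and 213 CPM against 358, 354, 319, 317 and 299 CPM. The groups did not overlap (0.44 ± 0.07 SE, edgeR adjusted p = 0.00319). Its relative Edem2 was at 231 ± 18.0 and 268 ± 29.5 CPM (SD, n = 5; 0.21, edgeR adjusted p = 0.220), with LPS 6 inside the untreated range. The ubiquitin ligase gene Syvn1 (0.21) did not overlap between groups and its adaptor gene Sel1l (0.09) did. Neither was called by edgeR (adjusted p = 0.0920 and 0.693). Syvn1 was called by DESeq2 (adjusted p = 0.0181), by limma-voom (0.0205) and by edgeR without untreated 5 (0.0481). Herpud1, a short-lived scaffold of the ligase complex, read 397, 346, 346, 339.9 and 365 CPM against 461, 400.5, 407, 378 and 403 CPM. LPS 9 lay inside the untreated range, and untreated 1 and LPS 6 were the highest of their groups (0.19, edgeR adjusted p = 0.183). Selenos, a selenoprotein of the export channel, also had 0.19 with overlapping groups (edgeR adjusted p = 0.154).

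Members were also grouped by the arm that is best known to drive them. In edgeR, 4 of 11 ATF6 targets (Sdf2l1, Creld2, Manf, Pdia4) and 4 of 7 XBP1 targets (Dnajb11, Pdia6, Edem1, Derl3) were called higher, with medians of 0.27 and 0.30. Of 7 targets of the PERK arm 1 was called, with a median of 0.22, where 2.84% of all genes were called higher. DESeq2 and limma-voom each called 7 ATF6, 4 XBP1 and 2 PERK arm targets higher (4.1% and 4.35% of all genes). With 1 surrogate variable these counts were 8, 4 and 3 (5.42% of all genes), so the order of the arms depended on the test. These groupings rest on textbook assignments that overlap, and the difference between arms was not tested.

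The ER stress response element (ERSE), searched as CCAAT and CCACG with any 9 bases between them, is the promoter sequence through which ATF6 and XBP1 act together with the factor NF-Y. RefSeq promoter windows (GRCm38.p6, 250 bases before to 50 after a gene's start) were at hand for 36 members, without Atf6, Derl1, Hyou1 and Manf, and were searched on both strands. An exact ERSE stood in 10 of 36 members (27.8%), against 37 of 27025 genes in the table (0.137%), these 10 included. Among tested genes outside the members and the other pathway genes it stood in 8 of 10801 (0.0741%). Members were listed as genes of this response, known ATF6 and XBP1 targets among them, so their share is descriptive and no result of these data. The related ERSE-II, searched as ATTGG and CCACG with any 1 base between them, stood in Dnajb11 and Herpud1, or 5.56% against 0.0444%. The XBP1-binding sequence TGACGTGG stood in none of the 36, which says little at its share of 0.714% of all genes. Among 93 other pathway genes treated below it stood in 7 (7.53%), and ERSE and ERSE-II in 0. The first 6 runs below are shown because their genes carry an ERSE and run from the largest to the lowest log2 fold change among the members, and the last, of Dnajb11, because it is the called member with an ERSE-II. Each is the gene's sense strand with the element in capitals (in Creld2, Derl3 and Ero1lb it lies on the opposite strand and reads as its reverse complement).
Derl3, chr10:75893222-75893280, plus strand: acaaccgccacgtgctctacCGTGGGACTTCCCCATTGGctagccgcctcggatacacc
Creld2, chr15:88819500-88819558, plus strand: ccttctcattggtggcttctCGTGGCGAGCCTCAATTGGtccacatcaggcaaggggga
Pdia6, chr12:17266471-17266529, plus strand: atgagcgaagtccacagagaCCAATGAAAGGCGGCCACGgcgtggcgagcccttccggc
Hspa5, chr2:34772005-34772063, plus strand: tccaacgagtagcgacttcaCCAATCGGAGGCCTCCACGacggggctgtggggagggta
Canx, chr11:50325780-50325838, minus strand: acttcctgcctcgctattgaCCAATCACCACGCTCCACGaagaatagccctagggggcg
Ero1lb, chr13:12565662-12565720, plus strand: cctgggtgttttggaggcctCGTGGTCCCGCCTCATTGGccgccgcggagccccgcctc
Dnajb11 (ERSE-II), chr16:22857843-22857871, plus strand: ccggcggcgATTGGCCCACGcctggctgc

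Genes with this element did not move as one. The 10 members with an exact ERSE had a median log2 fold change of 0.24, and 3 were called higher (Derl3, Creld2 and Pdia6). Hspa5 and Calr missed the threshold, Syvn1 (0.21), Dnajc3 (0.13), Hsp90b1 (0.11) and Canx (0.03) were lower still, and Ero1lb was at -0.25. Sdf2l1, Edem1, Pdia4 and Trib3 were called higher without an exact match in the window. Outside the members and the other ER genes treated below, 8 tested genes held an ERSE and none was called, with a median of 0.00. Of 7 such genes with an ERSE-II, 2 were called higher, with a median of -0.03. A match is a string of letters in a window, not a measured binding site.

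**Figure D3:**
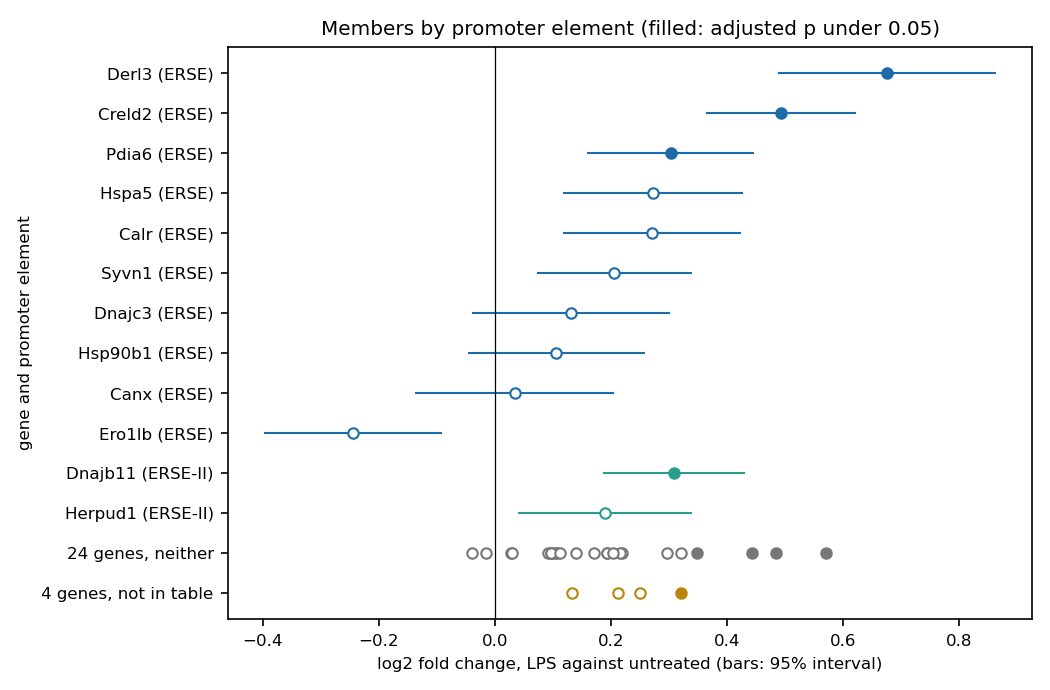
Log2 fold change of members by promoter element: 10 genes with an exact ERSE and 2 with ERSE-II (points with 95% intervals), 24 genes with neither and 4 genes without an entry in the promoter table (points only); filled points have an edgeR adjusted p under 0.05. Genes with an ERSE run from -0.25 (Ero1lb) to 0.68 (Derl3).

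Transcripts of the sensors and factors of the IRE1 and ATF6 arms showed no called change, with 0 of 5 past the threshold in edgeR, DESeq2 or limma-voom and none at an unadjusted p under 0.05 in edgeR. Xbp1 read 340.4, 327, 337, 342 and 358 CPM in untreated and 360.2, 315, 339, 355 and 368 CPM in LPS libraries. These ranges overlapped almost whole, and the log2 fold change of 0.03 had an interval of -0.10 to 0.16. Ern1, which encodes IRE1 alpha, read 485, 472, 448, 445 and 408 CPM against 612, 506, 479, 440.3 and 377 CPM. LPS libraries spread on both sides of the untreated ones, with LPS 6 the highest and LPS 10 the lowest (0.10, interval -0.14 to 0.33; -0.01 without LPS 6). Atf6 read 218, 222, 214, 215 and 170.04 CPM against 265, 249.5, 226, 207 and 192 CPM (0.13, interval -0.08 to 0.34), with untreated 5 far below its group. Atf6b, its close relative, read 86.8, 96.5, 89.3, 80.3 and 96.4 CPM against 88.3, 105, 102, 101 and 98.8 CPM. LPS 6 lay inside the untreated range (0.14, edgeR adjusted p = 0.369). Wfs1, the gene of wolframin, which restrains ATF6, was at 293 ± 23.4 and 315 ± 25.1 CPM (SD, n = 5; 0.10, edgeR adjusted p = 0.572). For Xbp1 the interval leaves out a rise as large as the estimate of any called member.

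**Figure D4:**
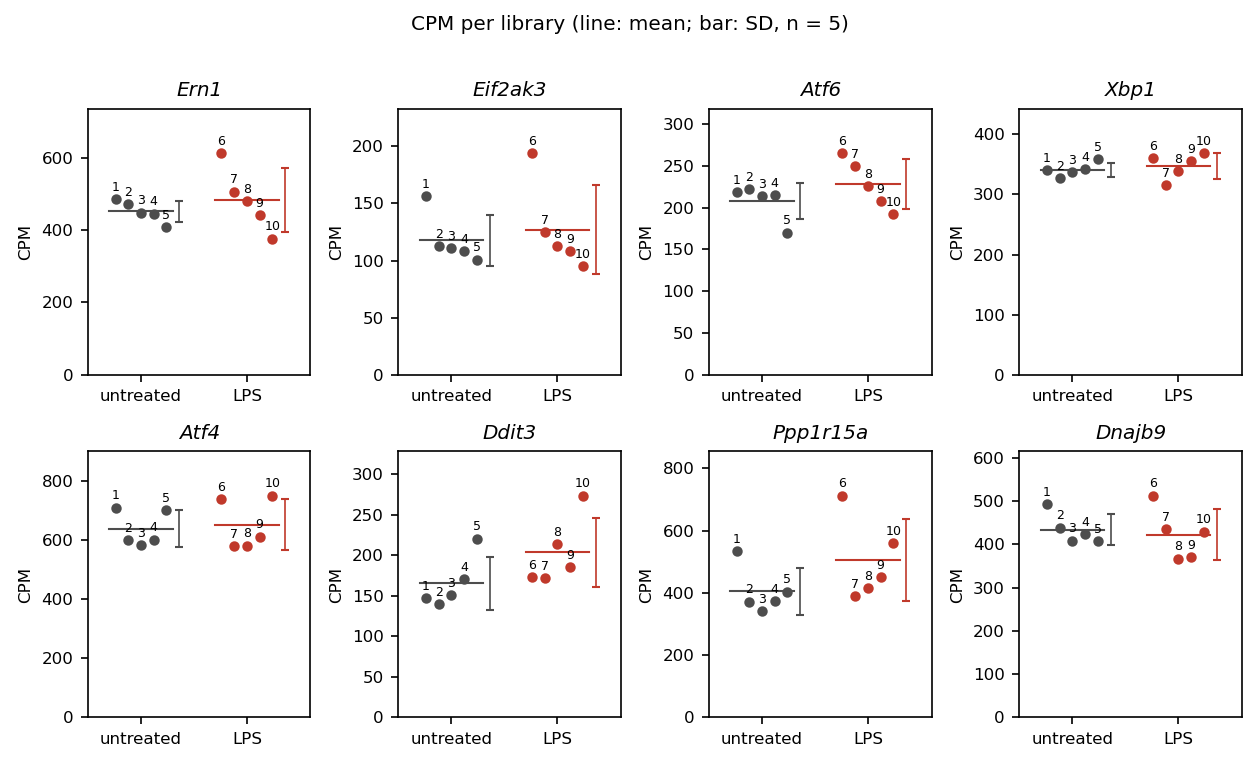
CPM of 8 regulators in each library, with library numbers, group mean (line) and SD (bar); each vertical axis starts at 0. Untreated 1 and LPS 6 are the highest libraries of their groups for Eif2ak3, Ppp1r15a and Dnajb9, and untreated 5 and LPS 10 for Ddit3.

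In the PERK arm edgeR called 1 of 8 members higher (2.84% of all genes), and the median was 0.16. All 8 values lay above 0 (47.9% of all genes), and 2 members had groups without overlap (3.84% of all genes). DESeq2 and limma-voom each called 2 higher (4.1% and 4.35% of all genes). Trib3, a pseudokinase induced by ATF4 and CHOP that binds the kinase AKT, read 135, 107, 121, 134 and 154 CPM in untreated and 204, 184, 169, 167 and 189 CPM in LPS libraries. All LPS libraries were above all untreated ones (0.49 ± 0.09 SE, edgeR adjusted p = 0.00871). Atf4 read 708, 599, 581, 599.97 and 699.7 CPM against 738, 579, 581, 610.2 and 748 CPM. The 2 groups covered nearly the same range (0.03, interval -0.17 to 0.23). Ddit3, the gene of CHOP, read 148, 139.5, 151, 170.3 and 221 CPM against 173, 172, 214, 186 and 274 CPM. Untreated 5 and LPS 10 were the highest, and the groups overlapped (0.30, interval -0.02 to 0.61, edgeR adjusted p = 0.363). Ppp1r15a, which encodes the GADD34 subunit that reverses eIF2 alpha phosphorylation, read 534, 371, 341, 374 and 404 CPM against 712, 389, 416, 451 and 560.3 CPM. Its spread within groups was wide (0.32, interval -0.03 to 0.67).

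Eif2ak3, the gene of PERK itself, read 157, 112, 111, 108 and 101 CPM against 194, 125, 113, 108 and 94.9 CPM. Untreated 1 and LPS 6 stood apart here: untreated 1 was 1.45 times the mean of the other untreated libraries and LPS 6 was 1.76 times that of the other LPS libraries. The log2 fold change of 0.11 became -0.10 without LPS 6. For Ppp1r15a the same ratios were 1.43 and 1.57, and for Ddit3 untreated 5 and LPS 10 were 1.45 and 1.47 times the mean of their groups' other libraries. Left out together, untreated 1 and LPS 6 changed no call: the same 9 members were higher and none lower, where 2.61% of all genes were called higher and 0.792% lower. The same 9 were also called without untreated 5 and LPS 10. Both settings were added after the values of these libraries were seen.

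Of the other PERK arm members, Sesn2, Asns and Chac1 were not called by edgeR. Sesn2, a sensor protein that restrains mTORC1, read 139.6, 135, 133, 148 and 135 CPM against 166, 157, 156, 156 and 162 CPM. Its groups did not overlap, and it was just short of the threshold (0.20 ± 0.05 SE, edgeR adjusted p = 0.0535; 0.0493 without untreated 4). DESeq2 (adjusted p = 0.00241) and limma-voom (0.0226) called it. Asns, asparagine synthetase, was at 164 ± 6.29 and 177 ± 7.75 CPM (SD, n = 5; 0.11, interval -0.01 to 0.23). Chac1, which degrades glutathione, was at 90.4 ± 6.57 and 96.7 ± 9.52 CPM (0.10, interval -0.07 to 0.26). The C/EBP-ATF response element, searched as TGATGNAA on both strands, stood in the windows of Asns, Chac1, Trib3 and Herpud1 (11.1% of 36 members, 4.51% of all genes). Shown are the runs of the 3 that belong to the PERK arm, of which Trib3 was called. In Trib3 and Chac1 the element lies on the opposite strand, and in Trib3 it lies 15 to 22 bases after the gene's start.
Trib3, chr2:152344030-152344055, minus strand: agctcaggtTTACATCAgccgggcgg
Asns, chr6:7693216-7693241, minus strand: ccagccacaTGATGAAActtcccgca
Chac1, chr2:119351029-119351076, plus strand: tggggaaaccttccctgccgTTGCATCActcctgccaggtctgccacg

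**Figure D5:**
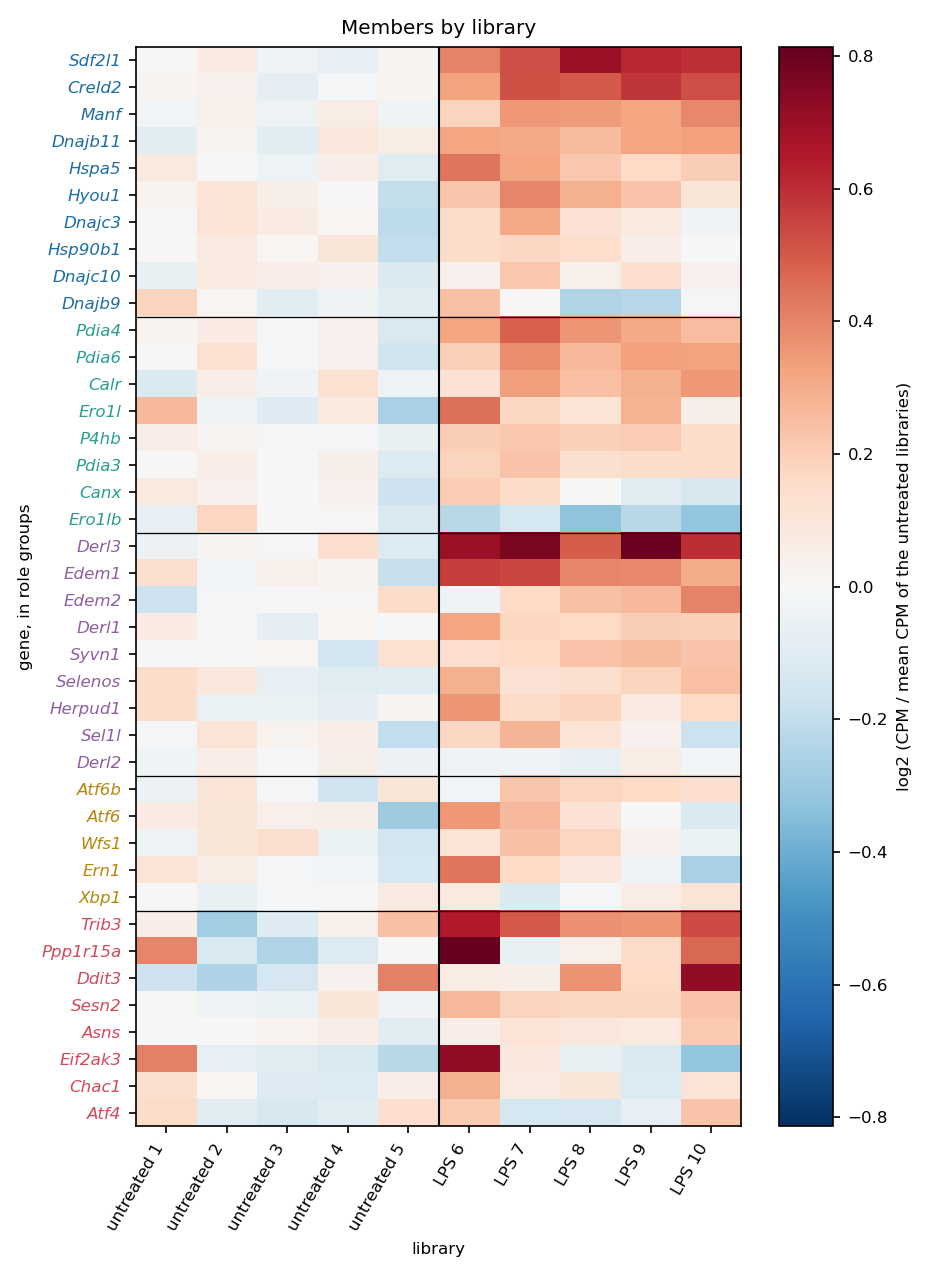
Log2 ratio of each member's CPM to its untreated mean in all 10 libraries, rows in the 5 role groups and sorted by fold change within each. Red (above the untreated mean) fills the LPS columns for the upper rows of the first 3 groups, and Ero1lb is blue in all 5 LPS columns. Eif2ak3 is darkest in untreated 1 and LPS 6, and Ppp1r15a in LPS 6 and LPS 10.

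Levels differed far more between members than between conditions. Per kilobase of merged exons, Calr (606 CPM per kb), Hspa5 (524), P4hb (412) and Pdia3 (396) were the most abundant in untreated libraries. Eif2ak3 (19.5), Derl2 (16.3) and Derl3 (5.56) were the least. Among the regulators, Atf4 stood at 270.45 CPM per kb, Xbp1 at 105, Ern1 at 55.3 and Atf6 at 22.5. Sdf2l1 stood at 144 CPM per kb in untreated and 213 in LPS libraries, and Pdia6 at 172 and 212, so that their levels were close in the latter.

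Beyond the members, 115 genes of the same pathway were taken from 8 lists, and 112 were tested. Of these, edgeR called 9 higher and none lower, with a median of 0.10 and 100 values above 0. Over all genes tested, 2.84% were called higher, the median was -0.01 and 47.9% of values lay above 0. In N-glycosylation 3 of 10 were called higher: Mogs, the glucosidase that makes the first cut in the glycan (108 ± 5.32 to 139 ± 4.59 CPM, SD, n = 5; 0.36, edgeR adjusted p = 0.00163), and the oligosaccharyltransferase subunit genes Dad1 (0.26) and Rpn2 (0.23). Of 17 other folding factors the prolyl isomerase gene Fkbp11 was called higher (23.2 ± 2.83 to 33.1 ± 4.07 CPM; 0.51, edgeR adjusted p = 0.0129). Of 16 genes of ER to Golgi transport, the cargo receptor gene Mcfd2 (0.32) and the KDEL receptor gene Kdelr2 (0.20), which returns ER residents from the Golgi, were called higher. Among 18 tested targets of ATF4 and CHOP 3 were called higher, namely Slc7a11 (0.85), the cystine transporter, Gdf15 (0.75), a stress cytokine, and Cebpb (0.87), a transcription factor that also responds to inflammation. None of 16 translocation genes, 14 of degradation, 16 other regulators or 5 transcripts cut by IRE1 was called. The most abundant of those lists were Srpr (0.09), Os9 (0.12), Creb3l2 (-0.13) and Hgsnat (0.07). In the list of transcripts cut by IRE1, Bloc1s1 was too low to be tested (mean 0.30 and 0.21 CPM) and Pmp22 was low (1.09 and 1.93 CPM). Sparc and Col6a1 were highest in untreated 4 (18.1 and 4.56 CPM), as was the mesenchymal marker Col1a1 (31.6 CPM). This list therefore says little on IRE1 in beta cells, and cutting by IRE1 was not tested. With single libraries left out in turn, Mogs and Fkbp11 kept their calls in all 10 fits. Rpn2 and Kdelr2 lost theirs in all 10, Dad1 and Cebpb in 9, Gdf15 in 6 and Mcfd2 and Slc7a11 in 3 (adjusted p up to 0.144). The count of 9 became 2 without untreated 3 or LPS 7, 3 without untreated 2, 4 without LPS 10, and 5 without untreated 1, untreated 4, LPS 8 or LPS 9.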

How the data were processed

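Beta cells sorted from untreated and LPS-exposed NOD islets were measured by RNA-seq in 10 libraries, grouped by sample title. The values are raw read counts per Ensembl gene as deposited, 1 table per library. STAR, HTSeq, Trimmomatic, SAMtools, FastQC and DESeq2 were used on build GRCm39 per the submitters' processing notes. No annotation or strand setting is given in the sources used here, so counts may hold reads of overlapping or antisense genes. Rows that name no gene (reads outside genes, ambiguous or aligned more than once) stayed out of library sizes: 8.84 to 12.9%, 1.40 to 1.61% and 4.89 to 6.10% of all reads. Of 56748 identifiers, 52073 matched a symbol; all 40 members did. One of 2 identifiers named Ddit3 had 0 counts and was not used.

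Counts were fitted in R 4.3.3 with edgeR 4.0.16 (filterByExpr with a minimum count of 10, TMM, quasi-likelihood F test, no covariate) over all 15942 genes passing the filter, with Benjamini-Hochberg adjustment over these and a threshold of 0.05. Standard errors and 95% intervals come from the fitted change and its statistic. CPM are relative to TMM-scaled totals. Totals in genes of 18465188 to 27379892 counts limit the precision of low genes most. Levels per kb use merged exons of GENCODE M21 (GRCm38). The fit was tested before use on simulated data with changes larger than those fitted for most members, so that test does not cover smaller ones. Alternatives were other scaling, filters and library sizes, DESeq2 1.42.0, limma-voom (limma 3.58.1) with sample quality weights, 1 surrogate variable (sva 3.50.0) and single libraries left out. Python 3.11.15 was used for summaries and figures.

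Members, lists and alternatives were chosen with earlier results of these data known. Values in every library are given for called members, for Ern1, Xbp1, Atf6, Atf6b, Eif2ak3, Atf4 and Ddit3, and for the most abundant and the most changed member of each role group, with a few others added. Of each further list, up to 3 called genes with the smallest adjusted p, or the most abundant one, are named.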

Additional observations from a re-analysis of the deposited data

Results flagged for a closer look

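In 3 of 80 groups of 5 libraries (40 members in 2 groups), 1 library lay so far from the rest that its gap to the nearest exceeded 0.71 of the whole range, Dixon's limit for 5 values. Chance alone flags about 1 in 20 groups. Eif2ak3 was at 157 CPM in untreated 1, above 101 to 112 CPM in the other untreated libraries. Atf6 was at 170 CPM in untreated 5, below 214 to 222 CPM. Derl1 was at 349 CPM in LPS 6, above 312 to 322 CPM in the other LPS libraries.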

How the results depend on the processing

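All 20 alternatives kept the direction of every member called with all libraries. Of these 9 members, 8 kept their calls in all alternatives and Pdia6 in all but 3 fits with 1 library left out. Other tests called more: 17 members higher and 1 lower (Ero1lb) with DESeq2 and with limma-voom, and 21 higher and 1 lower with 1 surrogate variable, which called 1335 genes in all in place of 601. With single libraries left out, 8 to 10 members were higher and 0 to 1 lower. Among the other pathway genes, 21 were called higher with DESeq2, 20 with limma-voom, 26 with the surrogate variable, 4 without untreated 5 and LPS 10, and 2 to 8 with single libraries left out. Medians of the 8 role groups and arms moved by less than the spread between libraries in all alternatives. The sign of 5 small, uncalled values changed: Dnajb9 without untreated 1, LPS 8 or LPS 9 (range over single libraries left out, -0.124 to 0.011), Canx in limma-voom (-0.003) and without untreated 5, LPS 6 or LPS 7 (-0.020 to 0.073), Ern1 (-0.011 to 0.174) and Eif2ak3 (-0.103 to 0.232) without LPS 6, and Atf4 without untreated 3, LPS 6 or LPS 10 (-0.026 to 0.071). The cause was not tested. No paired analysis was run, because the labels number the libraries 1 to 10 and tie no untreated library to an LPS library. Some libraries stood apart from their groups in parallel, given here as ratios to the mean of the group's other libraries. Untreated 1 and LPS 6 were at 1.45 and 1.76 for Eif2ak3, 1.43 and 1.57 for Ppp1r15a, and 1.26 and 1.23 for Ero1l. Untreated 5 and LPS 10 were at 1.45 and 1.47 for Ddit3, 0.78 and 0.81 for Atf6, and 0.85 and 0.80 for Sel1l. Not every member did so: for Calr, untreated 5 and LPS 10 were at 0.96 and 1.075. Whether such libraries share an origin was not tested, and the tests treat all 10 as independent.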

Other observations

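Which library led or trailed its group was uneven over the 40 members. Untreated 5 was the lowest untreated library for 22 members and LPS 10 the lowest LPS library for 14, while untreated 1 was the highest of its group for 14 and LPS 6 for 15. These counts describe the libraries, and members of the same pathway are not independent.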
